A study of Mus musculus with 64 samples.

Results

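The genes described here encode the proteins of the mitochondrial ribosome. They are the genes of the tumour count table whose symbol starts with Mrpl or Mrps and a number, without symbols containing -ps, which left 76 of 39017 genes, 47 named for the large subunit and 29 for the small subunit. The rule uses no measured value. The rule left out 4 more such symbols, all of pseudogenes, and 75 members had enough counts to be tested.

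Mitochondrial ribosomes translate the few messages of mitochondrial DNA, which code for core subunits of the respiratory chain and ATP synthase. Every one of their proteins is encoded in the nucleus, made in the cytosol and imported, while their RNA comes from mitochondrial DNA. Some members descend from bacterial ribosomal proteins and others are particular to mitochondria. A symbol does not always give the subunit: the proteins of Mrps30 and Mrps18a sit in the large subunit, and that of Mrps36 is now known as a part of the oxoglutarate dehydrogenase complex. Below, members are grouped by symbol.

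The libraries came from 8 mouse pancreatic tumour lines of C57BL/6 mixed background. Of these, 7 are clones of a KPC tumour, which carried a mutant Trp53 (R172H) allele beside a wild-type copy, and Pdx1-Cre, so that Cre acts from the Pdx1 promoter of the pancreatic lineage. All 7 came from 1 mouse tumour, and the study divides them by metabolite profile into group 1, which holds clones E, H and V, and group 2, which holds K, M, N and T. The KPC1 line belongs to neither group. For every line, mono-culture gave 4 libraries, and tumour cells recovered by their GFP after 48 h of coculture with fibroblasts gave another 4, so that there were 64 in all. Whether mono-cultures were sorted too is not in the labels, so the sort and the coculture cannot be told apart, nor do the labels say that libraries of a line came from separate cultures, so p-values within a line may measure technical spread.

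Library totals lay between 11178721 and 21333683 counts, and the members took 0.225 to 0.412% of the counts of a library. The lowest count of a tested member in any library was 32 and the median was 536. Of 18 tested fibroblast markers, 15 were higher in coculture. The summed level of Dcn, Fap, Postn and Thy1, which mark fibroblasts, was 0.0134 to 0.0743 CPM (counts scaled to a common library size) in mono-culture and 56.6 to 97.4 CPM in coculture over the 8 lines, and 2 of the 20 markers listed, Thy1 and Lum, were at 0 in every mono-culture library. The summed level of all 20 fibroblast markers, to which Fn1 gave most in mono-culture, was 1510 to 11300 CPM in mono-culture and 3290 to 10400 CPM in coculture. Of 9 tested markers of pancreatic tumour epithelium, 4 were lower and 1 was higher in coculture, and the sum of that list ranged from 2640 to 4010 CPM in mono-culture and from 1900 to 3480 CPM in coculture. The part of these differences in the results for coculture below was not tested, and fewer cells of a type and less RNA per cell cannot be told apart.

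Per length, the members with the highest level were Mrpl32 (median RPKM 59.9 over 64 libraries, range 22.7 to 145), Mrpl42 (59.3), Mrps21 (56.9), Mrpl12 (51), Mrps6 (50.5) and Mrpl28 (49.1). RPKM is the number of reads scaled to the length of the gene model and to the size of the library. The range of each of these 6 over libraries of all lines and both cultures included the medians of the other 5. Their order was not tested. The lowest members were Mrpl17 (3.80), Mrps25 (3.37), Mrps10 (3.02), Mrpl48 (0.703), Mrpl23 (0.142) and Mrpl53, which was at 0 in the median library. The ratio of the count table to the RPKM table gives the length behind each RPKM value, and it was 7920 bases for Mrpl17, 6890 for Mrps25, 13500 for Mrps10, 13600 for Mrpl48 and 41100 for Mrpl23, against 817 bases for Mrpl32 and 818 for Mrpl53. The exonic length in GENCODE M21 was instead 4982 bases for Mrpl32, 3682 for Mrpl42 (ratio 830) and 4883 for Mrpl23. For Mrps21, Mrpl12, Mrps6 and Mrpl28 the ratio gave 806, 1470, 1110 and 1350 bases, against 739, 1532, 1533 and 1380. The order by RPKM thus depends on the length used. The ratio of the tables varied by over 10% between libraries in 4 of 75 members, namely Mrpl23, Mrpl53, Mrps36 and Mrpl48. So for these the 2 tables may not rest on the same reads, or, for Mrpl53, on enough of them. Mrpl23, Mrps36 and Mrpl48 are the members with a named pseudogene among the symbols left out. Mrpl53 was not tested, as it had 21 counts in 64 libraries and at most 3 in any, and 695 of its 790 exonic bases (chr6:83109040-83109939, GRCm38) overlap another gene on the same strand.

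Coculture was compared with mono-culture first, with the line as the replicate. Summed over all 76 members, the level was 2728 ± 207 CPM in mono-culture and 3059 ± 345 CPM in coculture (mean ± SD over 8 lines), and it was higher in coculture in 8 of 8 lines, by 12.1% ± 8.40. By line, the summed level went from 2767 to 3612 CPM in E, from 2663 to 2764 in H and from 2801 to 3241 in V. In group 2 it went from 2410 to 2615 CPM in K, from 2506 to 2822 in M, from 2930 to 3141 in N and from 2711 to 2878 in T, and in KPC1 from 3038 to 3398 CPM. The change was widest in E, at 30.5%, and narrowest in H, at 3.79%. The 4 coculture libraries lay above all 4 mono-culture libraries in M alone, so in the other 7 lines the libraries overlapped. Large subunit members changed by 14.4% ± 9.51 and small subunit members by 7.75% ± 7.09 (SD, n = 8 lines), with no test of a sum over chosen genes. In 4 of 16 groups of libraries the library with the lowest total had the highest summed level, the share that chance gives with 4 libraries in a group. Among them was KPC1 in coculture, where replicate 2 held 11178721 counts.

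**Figure D1:**
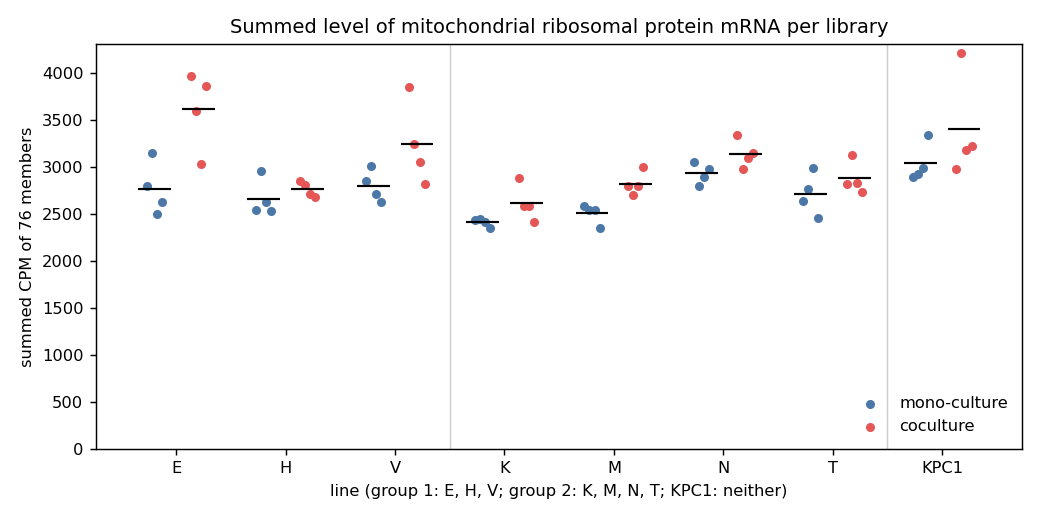
Summed CPM of the 76 members in each of 64 libraries (points) with the mean of the 4 libraries (black line), by line and culture; grey lines separate group 1, group 2 and KPC1. The mean was higher in coculture in 8 of 8 lines, and the libraries of the 2 cultures overlapped in 7 of them.

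Tested gene by gene over the 8 lines, 36 of 75 members (48%) rose in coculture, against 27.1% of the 14478 genes tested, and 8 members (10.7%) fell, against 27.4% of all genes. The calls are from edgeR's quasi-likelihood test with a Benjamini-Hochberg adjusted p under 0.1. The median log2 difference, coculture minus mono-culture, was 0.143 over the members and -0.001 over all genes. Among large subunit members 25 of 46 rose and 5 fell, with a median of 0.177, and among small subunit members 11 of 29 rose and 3 fell, with a median of 0.107. The difference was positive in all 8 lines for 22 members (29.3%), against 14.2% of all genes, and negative in all 8 lines for 1 member, Mrpl48 (1.33%), against 12.5%.

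With the trend over GC content and gene length removed from each sum, 21 of 74 members rose (28.4%), against 20.2% of all genes, and 11 fell (14.9%), against 35.4%. All 21 were also among the 36, and no member was called in opposite directions by the 2 fits, while the median over the members was 0.045. In the 7 lines with both cultures in the first series of sample numbers in the labels, 30 members rose, against 27.8% of all genes, and 8 fell, against 27.1%. In the 5 lines with both cultures in the second, 10 rose, against 10.8% of all genes, and 0 fell, against 8.59%. The trend correction and the look at the second series were chosen after seeing the data. Without line E, 27 members rose (36%), against 23.8% of all genes.

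**Figure D2:**
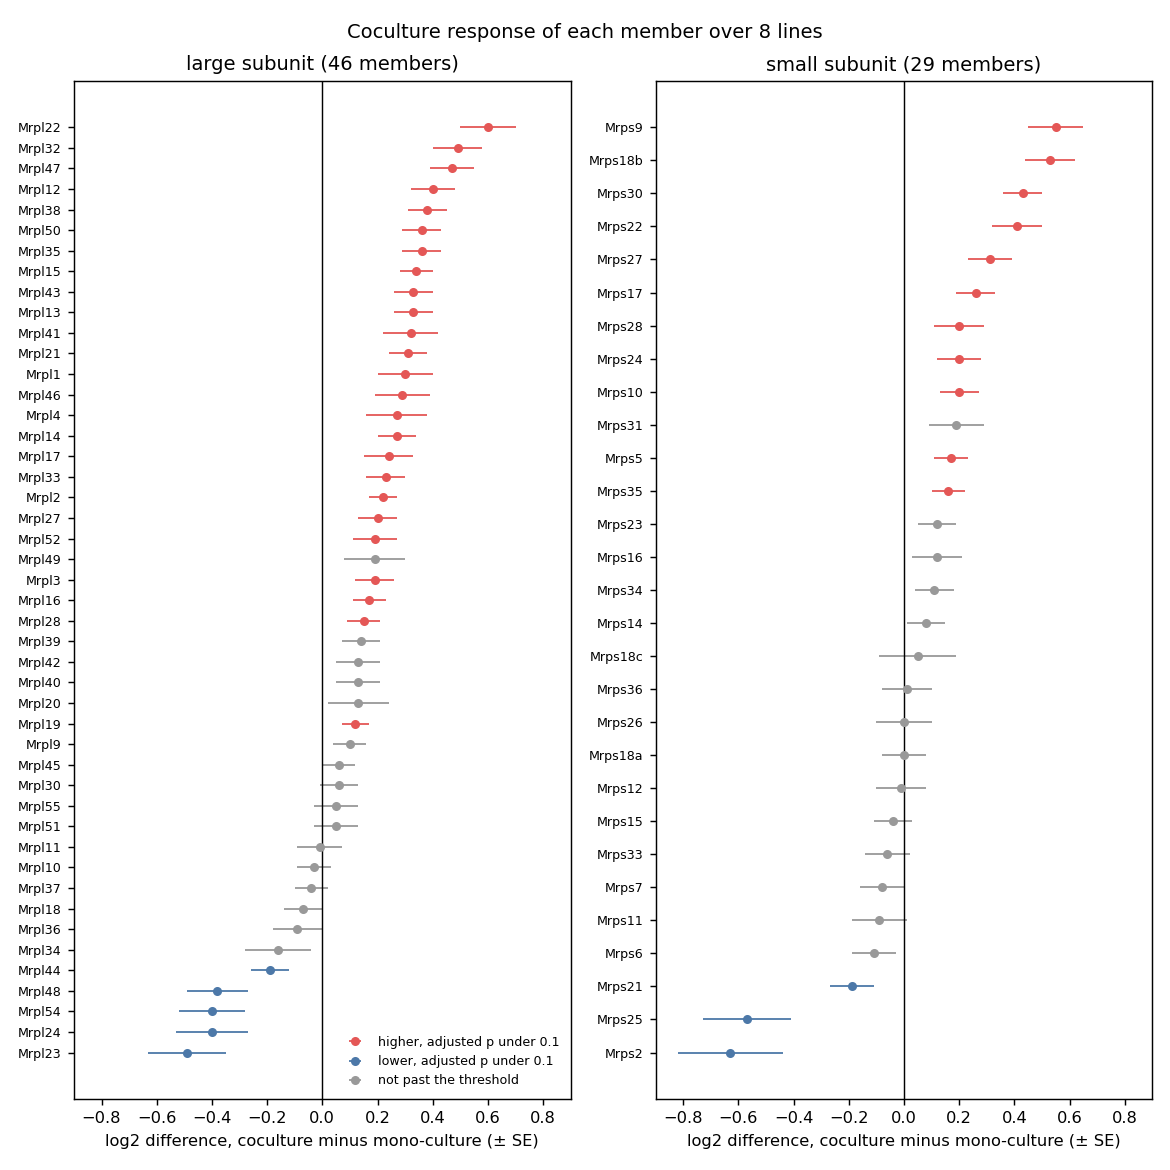
Log2 difference between cultures for each tested member over 8 lines, with its SE, ranked within the large (left) and the small subunit (right). Red points rose and blue points fell at an adjusted p under 0.1: most points lie to the right of 0, and 8 blue points lie to the left, down to -0.63 for Mrps2.

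Of the members that rose, Mrpl22, a homologue of the bacterial protein that lines the exit tunnel, had the largest difference. The gene lies at chr11:58171661-58179565 on the plus strand (GRCm38). Its line means ranged from 24.7 to 55.8 CPM in mono-culture (median 35.6) and from 29.2 to 86.1 CPM in coculture (median 55.9). In E the mono-culture libraries were at 32.3, 38.7, 33.4 and 27.6 CPM and the coculture libraries at 76, 65.3, 63.4 and 74.6 CPM. In K they were at 26.7, 24, 29.4 and 21.6 CPM against 34, 29.1, 30.2 and 23.5 CPM. The libraries of the cultures were fully apart in 6 lines (E, H, V, M, N and T) and overlapped in K and KPC1. The log2 difference over 8 lines was 0.60 ± 0.10 (SE, edgeR adjusted p = 0.00260).

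Mrpl15, a protein of bacterial ancestry in the large subunit, had the smallest p. Its line means were 55.1 to 84.7 CPM in mono-culture (median 63) and 65.2 to 105 CPM in coculture (median 83.4), a log2 difference of 0.34 ± 0.06 (edgeR adjusted p = 0.00242), and the libraries were apart in 5 lines. Mrpl38, which has a domain related to phosphatidylethanolamine-binding proteins, went from a median line mean of 76.1 to 110 CPM, with its 4 coculture libraries above all mono-culture libraries in 6 lines and an overlap in V and KPC1. Mrpl47 (log2 difference 0.47 ± 0.08) and Mrpl32 (0.49 ± 0.09), whose protein is cut by the m-AAA protease after import, were also higher in 8 of 8 lines. In Mrpl32 the smallest difference was 0.02 in K and the largest 0.91 in E.

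Among small subunit symbols, Mrps9 rose from a median line mean of 54.2 CPM (41.3 to 68.1) to 84.4 CPM (55 to 93.5), by 0.55 ± 0.10 (edgeR adjusted p = 0.00316). Mrps30, whose protein lies in the large subunit, rose from 36.1 CPM (23.8 to 52.5) to 46.8 CPM (36.2 to 82.2), by 0.43 ± 0.07. The 3 paralogs of the S18 family had unlike values. Mrps18b rose from a median of 34.6 to 57 CPM, by 0.53 ± 0.09 (edgeR adjusted p = 0.00283), and its libraries were apart in 6 lines, with an overlap in K and M. Mrps18a had a difference of 0.00 ± 0.08 and Mrps18c of 0.05 ± 0.14, and neither passed the test. A test between the paralogs was not run.

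Promoters of these members are shown so that the start regions of members that rose and of 1 that fell can be set side by side. They run from 250 bases before to 50 bases after the start in RefSeq on GRCm38.p6, are written 5′ to 3′ on the strand of the gene, and carry in capitals each match to the letters CCGGAAG (an ETS motif) or AAGATGGC (a YY1 motif) on either strand. Shown are the 3 members with the smallest p among those that rose and have an entry, and Mrps25, which fell. Mrpl48, which also fell, has several entries and is not shown. An entry of Mrpl48 holds the ETS letters, at position -34 from its start. They lie at chr11:58171414-58171713 (plus strand), chr13:118387203-118387502, chr17:35916391-35916690 and chr6:92183974-92184273 (minus strand).
Mrpl22: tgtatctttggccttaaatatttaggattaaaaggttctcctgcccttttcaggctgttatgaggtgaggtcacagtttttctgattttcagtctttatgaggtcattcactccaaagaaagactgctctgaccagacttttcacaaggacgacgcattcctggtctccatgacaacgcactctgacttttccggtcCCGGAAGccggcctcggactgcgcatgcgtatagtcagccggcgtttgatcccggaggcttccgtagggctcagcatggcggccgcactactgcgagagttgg
Mrps30: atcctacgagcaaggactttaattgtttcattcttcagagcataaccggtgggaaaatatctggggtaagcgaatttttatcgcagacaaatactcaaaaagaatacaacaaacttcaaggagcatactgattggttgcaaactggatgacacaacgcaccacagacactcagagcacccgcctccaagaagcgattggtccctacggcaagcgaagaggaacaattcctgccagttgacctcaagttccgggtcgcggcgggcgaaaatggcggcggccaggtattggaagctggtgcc
Mrps18b: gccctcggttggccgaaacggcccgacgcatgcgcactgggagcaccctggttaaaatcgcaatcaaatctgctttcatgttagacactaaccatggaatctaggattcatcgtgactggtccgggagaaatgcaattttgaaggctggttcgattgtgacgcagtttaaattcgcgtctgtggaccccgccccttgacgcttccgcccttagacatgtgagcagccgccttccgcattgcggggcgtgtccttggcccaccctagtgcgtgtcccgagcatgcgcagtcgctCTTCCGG
Mrps25: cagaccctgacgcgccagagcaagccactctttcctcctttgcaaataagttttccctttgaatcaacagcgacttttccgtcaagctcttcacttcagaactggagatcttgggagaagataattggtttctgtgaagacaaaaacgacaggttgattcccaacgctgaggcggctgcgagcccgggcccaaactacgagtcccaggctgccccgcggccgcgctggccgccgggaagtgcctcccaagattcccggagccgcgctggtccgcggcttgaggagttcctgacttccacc

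The ETS letters stood at position 43 in Mrps18b and at position -53 in Mrpl22, counted from the start, and neither set of letters occurred in the windows of Mrps30 and Mrps25. An entry was found for 67 members, with 73 promoters in all. Of these, 32.9% held the ETS letters, against 8.86% of all 32851 promoters of that length, and 16.4% held the YY1 letters, against 2.75%. The E-box CACGTG stood in 9.59% against 7.15% and CCAAT in 41.1% against 37.4%. Matches were counted on both strands, no motif contains another, and the ETS and YY1 letters can overlap in AAG: 45.2% held either, against 11.2%. A match is a description of the sequence. By response, 11 of 29 members that rose and had an entry, 2 of 7 that fell and 11 of 31 others held the ETS letters. The start of another protein-coding gene lay within 1000 bases on the opposite strand for 32 of 75 members (42.7%), against 11% of all protein-coding genes. Mrps11 and Mrpl46 are such neighbours of each other, and Mrpl46 rose in coculture by 0.29 ± 0.10 on the log2 scale while Mrps11 had a difference of -0.09 ± 0.10 that did not pass the test.

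Of the 8 members that fell, Mrps2, a small subunit protein of bacterial ancestry, had the largest difference. The gene lies at chr2:28468066-28471178 on the plus strand. In T its mono-culture libraries were at 69.1, 69.3, 69.5 and 56.9 CPM and its coculture libraries at 31.7, 25.1, 23.4 and 20.1 CPM. In V they were at 62.4, 83.1, 70.3 and 70.5 CPM against 23, 36.9, 38 and 34.5 CPM. In K they were at 60.7, 60.5, 63.7 and 57.4 CPM against 77.9, 63.6, 68 and 59.1 CPM, and in KPC1 at 29.5, 27.1, 52 and 32.5 CPM against 35.4, 38.4, 30.5 and 31.4 CPM. The cultures were thus apart, with coculture lower, in E, H, V, N and T, and overlapped in K, M and KPC1. The log2 difference over 8 lines was -0.63 ± 0.19 (SE, edgeR adjusted p = 0.0208).

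In Mrps25 the same 3 lines, K, M and KPC1, differed little between cultures. Its means went from 35.5 to 15 CPM in V, from 30.1 to 13.2 in T and from 16.8 to 8.78 in H, against 24.5 and 26 CPM in K and 30.6 and 30.4 CPM in M, and the difference over 8 lines was -0.57 ± 0.16 (edgeR adjusted p = 0.0179). Of the 6576 exonic bases of Mrps25, 4590 overlap Nr2c2 on the other strand, and the strand setting of the counts is not given. Mrpl24 fell by 0.40 ± 0.13 on the log2 scale, Mrpl54 by 0.40 ± 0.12 and Mrpl23 by 0.49 ± 0.14. In K the differences of these 3 were 0.16, -0.00 and 0.01, and in T they were -0.76, -0.86 and -1.11. Mrpl48 fell by 0.38 ± 0.11, from a median line mean of 11 to 8.31 CPM, and in T it stood apart from the other lines with -0.99. The fall of Mrpl23 was seen in the count table, while in the RPKM table its difference was -0.02 (limma adjusted p = 0.515). Mrpl44, which has a fold related to RNase III, and Mrps21 fell least, by 0.19 ± 0.07 and 0.19 ± 0.08, and each lost the call without line H, T or V, Mrpl44 also without N and Mrps21 also without KPC1.

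**Figure D3:**
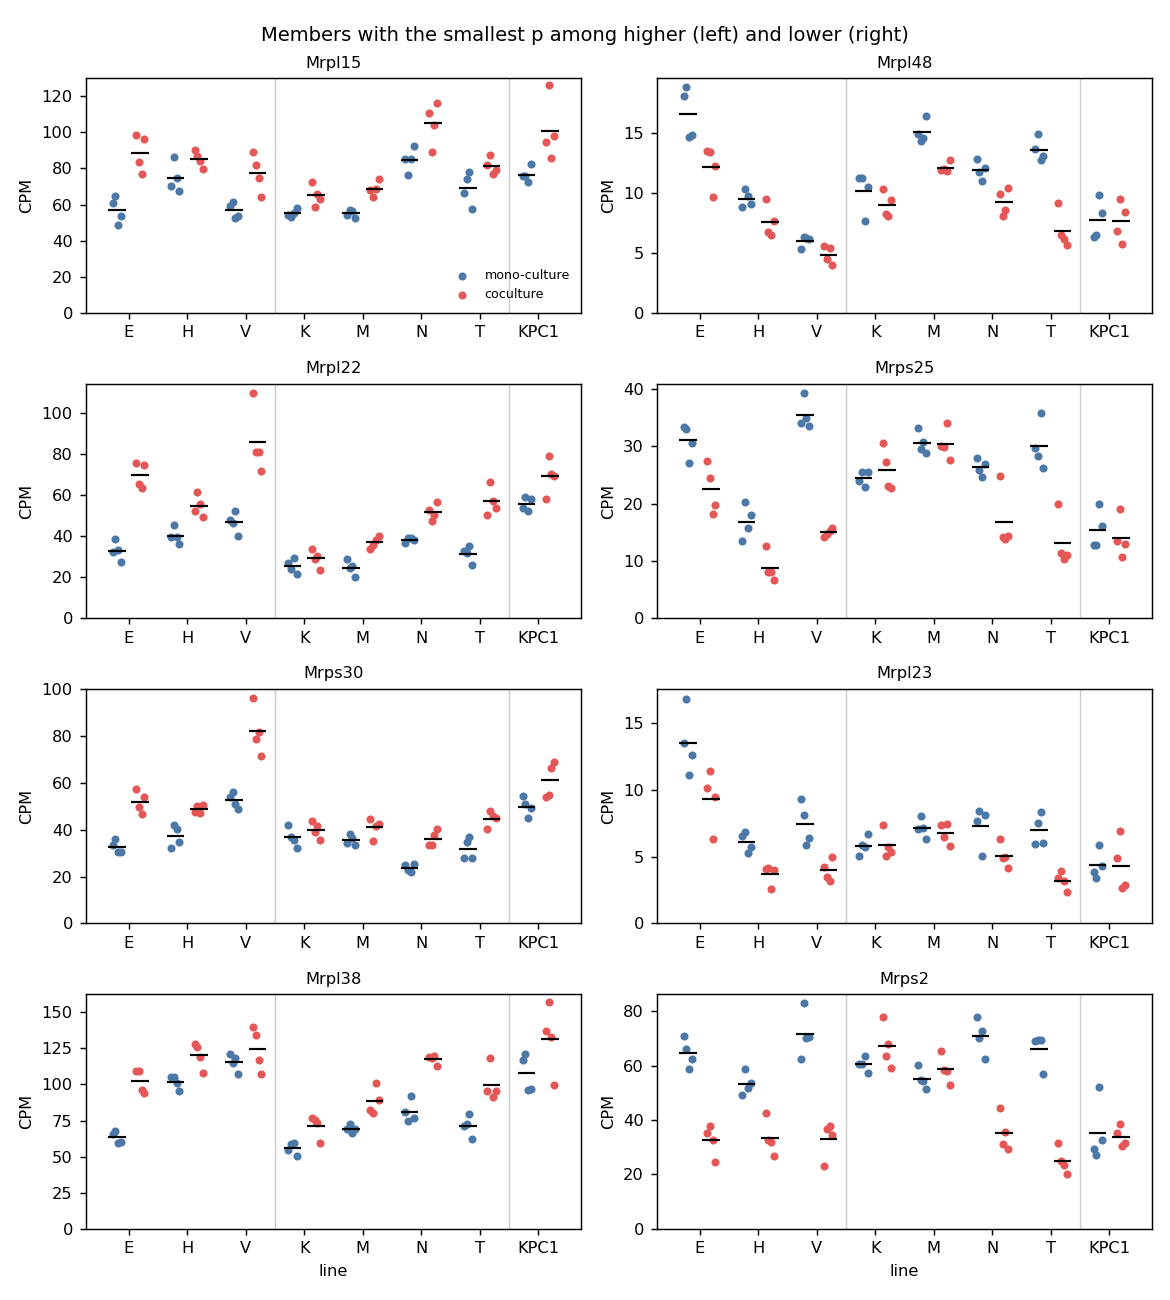
CPM of 4 members that rose (left) and 4 that fell (right) in each of 64 libraries (points), with the mean of the 4 libraries of each line and culture (black line). Mrpl22 was higher in coculture in 8 of 8 lines, whereas Mrps25 and Mrps2 were lower in coculture with no overlap in H, V and T and overlapped in K, M and KPC1.

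Of 8 further members with well-known roles, 3 rose and 5 did not pass the test. Mrpl12, which also binds the mitochondrial RNA polymerase, rose by 0.40 ± 0.08 on the log2 scale, from a median line mean of 67 to 88.6 CPM. Mrps22 rose by 0.41 ± 0.09 and Mrpl3 by 0.19 ± 0.07, and the human counterparts of both are mutated in inherited respiratory chain deficiency. Mrps12, the homologue of the streptomycin target S12, had a difference of -0.01 ± 0.09, Mrpl11 of -0.01 ± 0.08, Mrps7 of -0.08 ± 0.08, Mrps16 of 0.12 ± 0.09 and Mrps34 of 0.11 ± 0.07, and none of these 5 passed the test. Mrps34 shares 763 exonic bases with Nme3 on its strand, and Nme3 had 0 counts in all 64 libraries.

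Within single lines, with 4 libraries against 4, the members' share differed from line to line. In E 50 of 75 members rose (32.1% of all genes did) and 5 fell (29.2%). In V 32 rose (30% of all genes) and 14 fell (31.4%), and in H 15 rose (21.4%) and 11 fell (22.5%). In group 2, M had 25 that rose (21.5%) and 3 that fell (17.2%), N 18 (20%) and 9 (17.3%), K 8 (12.4%) and 1 (7.96%) and T 19 (31.5%) and 16 (30.6%). In KPC1 26 rose (20.1%) and 9 fell (19%). So the members' share that rose was above that of all genes in E (66.7%), V (42.7%), M (33.3%) and KPC1 (34.7%). It was near that of all genes in N (24%), H (20%) and K (10.7%), and below it in T (25.3%). Without replicate 2, which in KPC1 includes the library with the lowest total, 8 members rose in KPC1 (10.7%, against 14.2% of all genes). Without replicate 4, 8 members rose in M (10.7%, against 14.8%), so in KPC1 and M the members' share was then no longer above that of all genes. In H 8 rose without replicate 3 (16.4% of all genes), and in K 2 rose without replicate 1 (9.2%). In V 8 members fell without replicate 2, 3 or 4, against 26.6 to 28.9% of all genes, and in T 9 fell without replicate 3, against 26.7%. Most mono-culture libraries of KPC1 were in the second series of sample numbers and most of its coculture libraries in the first. With the series as a covariate, 25 members rose in KPC1 (17% of all genes) and 4 fell (16.2%). In V 29 then rose (29.8%) and 12 fell (31.5%), in H 16 (21.6%) and 12 (22.7%) and in K 9 (12.2%) and 1 (7.72%). The members' counts in E, M, N and T did not change. A member was called higher in some lines and lower in others in 15 of 75 cases (20%), against 17.6% of all genes.

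**Figure D4:**
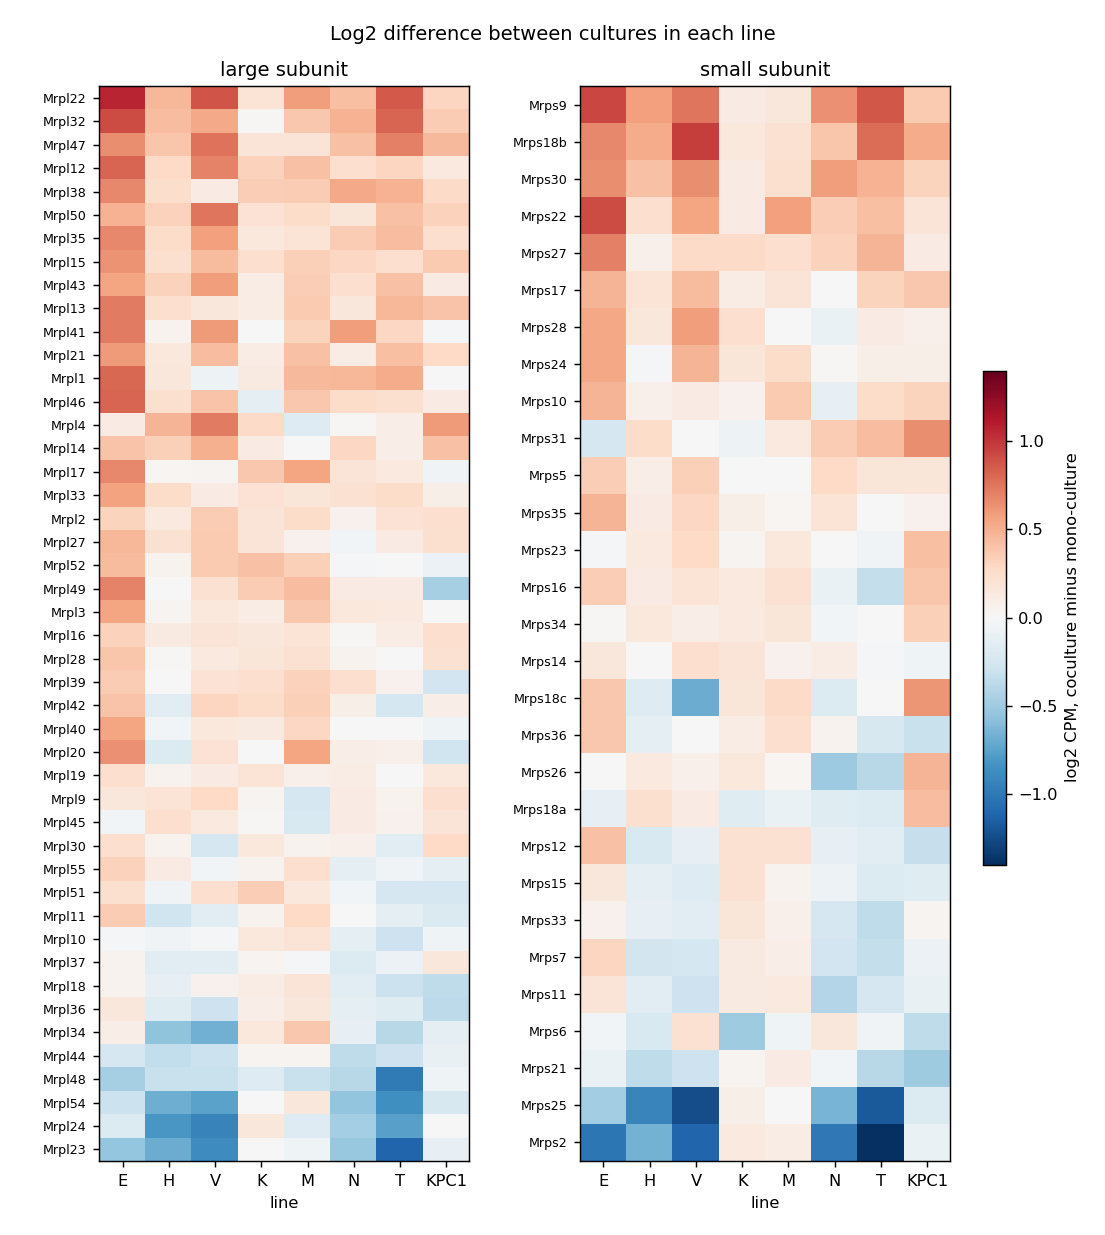
Log2 difference between cultures of each tested member (rows, ranked by the mean response) in each line (columns), large subunit left and small subunit right; red is higher and blue lower in coculture. Red fills most of column E, with Mrpl22 at 1.07, and the rows of Mrps2 and Mrps25 are blue in E, H, V, N and T but pale in K, M and KPC1, with -1.39 in T and 0.14 in K for Mrps2.

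The differences in response among lines were themselves tested, with the line by culture interaction over 64 libraries. They passed the threshold for 59 of 75 members (78.7%), against 71.3% of all genes. The smallest p belonged to Mrps2 (edgeR adjusted p = 1.44e-09), Mrpl49 (1.57e-06), Mrps25 (3.03e-06), Mrps9 (2.90e-05), Mrpl34 (3.25e-05) and Mrpl22 (5.48e-05). Mrpl49 rose in E from 42.8 ± 3.62 to 69.5 ± 9.97 CPM (SD, 4 libraries) and fell in KPC1 from 58.5 ± 5.54 to 41.9 ± 9.61 CPM. In H it was at 38.7 ± 1.52 and 38.7 ± 2.37 CPM. Mrpl34 fell in V from 48.9 ± 3.64 to 30.7 ± 1.58 CPM and in H from 44.3 ± 4.90 to 29.7 ± 6.07 CPM, and rose in M from 22.2 ± 2.24 to 28.7 ± 0.564 CPM. In Mrps9 the means of 80.3 ± 9.31 CPM in E and 86.8 ± 10.4 CPM in T in coculture stood against 41.3 ± 1.65 and 47.6 ± 2.58 CPM in mono-culture, while in K they were 59.2 ± 4.18 and 54.2 ± 4.95 CPM. Over the 8 lines, the responses of 2 members correlated with a mean Pearson r of 0.215, against 0.003 for all genes, as a description over 8 points that share normalization.

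In mono-culture, the lines differed in 74 of 75 members (98.7%), against 96.8% of all genes, by an F test over 32 libraries. The exception was Mrpl28, with line means between 58 and 69 CPM. All mono-culture libraries of K were in the second series of sample numbers, and all those of E, N and V in the first. Between K and these lines, line and series cannot be told apart. The range over lines had a median of 0.83 on the log2 scale against 1.23 for all genes tested. It was over 1 in 22 members (29.3%), against 62.1%. The genes in this comparison were not matched for level, on which the range may depend. The mean pairwise r of the members over the 8 lines was 0.164, against 0 for all genes.

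The widest range was that of Mrps28, from 7.98 ± 1.36 CPM in K to 24.6 ± 3.13 CPM in N (SD, 4 libraries), with T at 20.6 ± 4.27 overlapping N. Mrps6 was lowest in V, at 33 ± 2.85 CPM, and highest in K, at 101 ± 12.2 CPM, where its 4 libraries lay above those of all other lines. Its exons, 1533 bases in all, overlap those of Gm49711 and Slc5a3 on the same strand, by 464 bases summed over both genes. Mrpl32 ranged from 20.9 ± 1.81 CPM in N to 57.4 CPM in both V (± 5.16) and KPC1 (± 10.7). Mrpl50, a large subunit protein particular to mitochondria, split the lines, with 26.3 ± 1.74, 27.4 ± 1.97 and 28.7 ± 1.4 CPM in K, M and V and 43.5 to 63 CPM in the others. Mrpl52 ran from 21 ± 2.02 in K to 55.7 ± 4.67 CPM in N and Mrpl24 from 27.4 ± 3.25 in K to 69.1 ± 7.31 CPM in N. Mrpl23 (4.35 to 13.5 CPM) and Mrpl48 (6.02 to 16.6 CPM) were both highest in E.

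**Figure D5:**
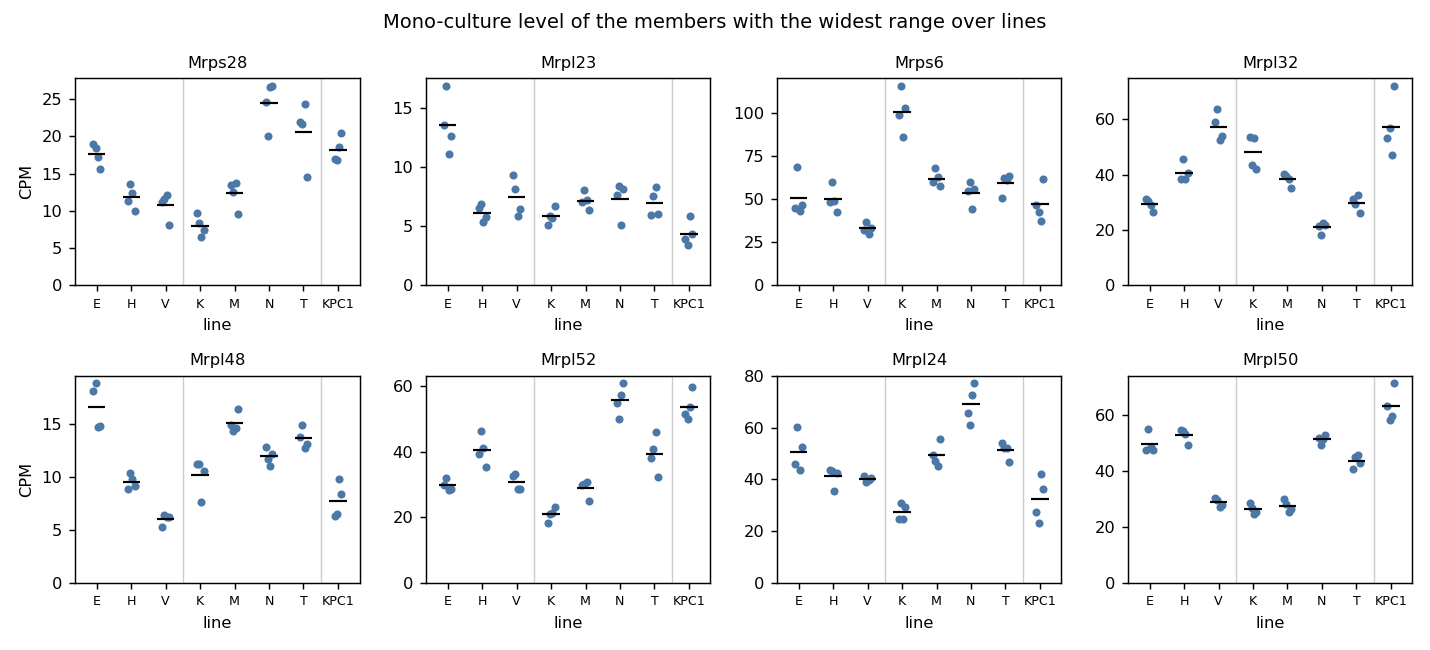
Mono-culture CPM of the 8 members with the widest range over lines, in each library (points) with the mean of 4 (black line), for group 1, group 2 and KPC1 from left to right. Mrps6 stands highest in K, Mrps28, Mrpl52 and Mrpl24 in N and Mrpl23 and Mrpl48 in E.

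Group 1 and group 2 clones were compared in mono-culture, 3 sums against 4, since the study separates these groups by metabolism. The summed level was 2744 ± 72.1 CPM in group 1 and 2639 ± 231 CPM in group 2 (SD over clones), a difference within the spread of group 2. No member was called by edgeR (0 of 75, and 0 of 14829 genes, 0% of them), and DESeq2 called 0 members and 106 genes (0.715%), with 4 members at an unadjusted p under 0.05. In edgeR 3 members and 744 genes had an unadjusted p under 0.05. Those 3 were Mrpl34, Mrpl17 and Mrpl41. Mrpl34 was at 35.3, 44.3 and 48.9 CPM in E, H and V and at 30.2, 22.2, 31.1 and 29.3 CPM in K, M, N and T, a log2 difference of 0.60 ± 0.19 (edgeR unadjusted p = 0.0170, adjusted p = 0.900). Mrpl17 was at 41.2, 30.6 and 32.3 CPM against 18.7, 19.1, 28.5 and 24.6 CPM, and Mrpl41 at 20.7, 22.7 and 20.1 CPM against 17.7, 15.3, 15 and 14.9 CPM. The clones of the groups did not overlap in these 3 nor in Mrps12, all higher in group 1, which makes 4 members (2.14% of all genes), nor in 2 that were lower (3.34% of all genes). The 2 were Mrps6, at 50.9, 49.9 and 33 CPM against 101, 62, 53.7 and 59.3 CPM, and Mrpl44, at 18.3, 21.3 and 22.6 CPM against 27.6, 24.8, 26.7 and 24 CPM. Mrpl1 (log2 difference 0.42 ± 0.19), Mrpl30 (-0.29 ± 0.17) and Mrps18a (-0.26 ± 0.21) were next in p in their direction, and their clones overlapped. With the 28 libraries in place of the sums, so that libraries of a clone count as replicates, 18 members were called (24%), against 31.7% of all genes.

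The difference in coculture response between the groups was called by edgeR for 0 of 75 members and 1 of 15700 genes (0.00637%), with 0 members and 1178 genes at an unadjusted p under 0.05. DESeq2 called 0 members and 162 genes (1.03%), with 1 member at an unadjusted p under 0.05. The smallest p belonged to Mrpl14, Mrps28 and Mrpl4. Mrpl14 had log2 differences of 0.40, 0.33 and 0.50 in E, H and V and of 0.12, -0.01, 0.29 and 0.09 in K, M, N and T, so the response was larger by 0.28 ± 0.14 in group 1 (edgeR unadjusted p = 0.0708, adjusted p = 0.690). For Mrps28 this value was 0.36 ± 0.18 and for Mrpl4 0.39 ± 0.19. With 56 libraries and the replicate number as a block, 25 members were called (33.3%), against 32.3% of all genes. No member had every group 1 clone moving in a direction and every group 2 clone in the other.

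Other genes of mitochondrial translation were counted from lists, beside the 27.1% of all genes that rose and the 27.4% that fell. Of 6 mitochondrial ribosomal proteins with other symbols, Chchd1 (log2 difference 0.30 ± 0.07), Aurkaip1 (0.28 ± 0.08) and Ptcd3 (0.35 ± 0.13) rose in coculture and Gadd45gip1 fell by 0.27 ± 0.11. Of 20 genes listed for mitochondrial ribosome assembly 7 rose and 2 fell, and the list also holds genes with other roles, such as Yars2 and Mettl5. C1qbp, a matrix protein that the ribosome needs, went from a median line mean of 208 CPM (136 to 275) to 297 CPM (177 to 425) and rose by 0.47 ± 0.07 (edgeR adjusted p = 0.00171), and the GTPase genes Gtpbp10 (0.61 ± 0.12) and Noa1 (0.40 ± 0.10) and the ribosome-binding factor Rbfa (0.28 ± 0.07) rose too, while Eral1, a chaperone of small subunit RNA, fell by 0.45 ± 0.14 and Mettl17 by 0.33 ± 0.14. Of 16 genes listed as translation factors 5 rose and 4 fell, and this list too holds genes with other roles, such as Pnpt1. Among those that rose were the elongation factors Gfm1 (0.27 ± 0.06) and Tsfm (0.29 ± 0.07), Mtfmt (0.25 ± 0.09) and Pnpt1 (0.48 ± 0.10). Those that fell were Trmu (-0.61 ± 0.15), Pdf (-0.90 ± 0.25, at 0.217 CPM in the median mono-culture line), Mtrf1l (-0.21 ± 0.07) and Taco1 (-0.29 ± 0.12).

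Of 11 genes of mitochondrial transcription and RNA handling 6 rose, including the polymerase gene Polrmt (0.32 ± 0.06), Tfb2m (0.37 ± 0.07), Trmt10c (0.55 ± 0.11) and Supv3l1 (0.27 ± 0.06), and Tefm fell by 0.34 ± 0.15. Of 12 nuclear regulators of mitochondrial genes 6 rose and 0 fell. Myc went from a median line mean of 278 CPM (169 to 427) to 563 CPM (275 to 723) and rose by 0.84 ± 0.10 (edgeR adjusted p = 0.000770). Atf4 (0.60 ± 0.16), Esrra (0.38 ± 0.11) and Gabpb1 (0.40 ± 0.13), which codes for a partner of the ETS factor Gabpa, rose as well. Gabpa itself (-0.03 ± 0.06), Yy1 (-0.08 ± 0.05) and Nrf1 (0.09 ± 0.07) did not pass the test. The median log2 difference of these lists was 0.12 for ribosomal proteins with other symbols and for assembly, 0.06 for translation factors and 0.17 for transcription and for regulators, beside 0.143 for the members. For the cytosolic ribosomal proteins, a list added after the values were seen, it was 0.19 over 80 tested genes, of which 50 rose and 1 fell.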

How the data were processed

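RNA of tumour cells was made into strand-specific polyA libraries and sequenced as paired ends of 76 bases. The submitters' processing notes name mm10, featureCounts and edgeR. The authors deposited raw counts per gene in 1 table and RPKM values, which they had scaled to gene length and library size, in another. The aligner, the annotation and the strand setting are not given in the sources used here. From the counts, edgeR 4.0.16 (R 4.3.3; TMM, filterByExpr) gave quasi-likelihood tests with Benjamini-Hochberg adjustment over all genes at 0.1: on counts summed per line and culture for coculture (line as a term), on mono-culture sums of 7 clones for the groups and 14 sums for their interaction, and on single libraries within and among lines. CPM use TMM library sizes. RPKM were used for levels between genes and as an alternative with limma 3.58.1. Tests were checked on simulated counts. DESeq2 1.42.0 was an alternative.

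The members and lists were chosen with earlier results of these data known. Genes are named by rule: the 8 smallest p in each direction for coculture, 4 for groups, 3 for the group interaction, 6 for differences in response among lines, the 8 widest ranges, the 6 highest and 6 lowest RPKM, the untested member, the S18 paralogs, 10 members with well-known roles and up to 4 called list genes a direction. Mrps11, Mrpl46 and Mrpl28 as the exception among lines were named after their values were seen. Positions are from GENCODE M21 and promoters from RefSeq, both on GRCm38. A further part of the genotype is not reported here.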

Additional observations from a re-analysis of the deposited data

Results flagged for a closer look

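Of 49 groups of values tested for a value far from the others, 3 held one, while chance flags about 1 in 20 groups. Replicate 2 of KPC1 in coculture had 11178721 counts, far under the other 3 libraries of its group. The change of the summed level in line E, 30.5%, lay far above those of the other 7 lines. The log2 difference of Mrpl48 in T, -0.99, lay far under those of the other lines.

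The response to coculture differed among the 8 lines, by the interaction of line and culture in edgeR, with an adjusted p of 1.44e-09 for Mrps2, 1.57e-06 for Mrpl49, 3.03e-06 for Mrps25, 2.9e-05 for Mrps9, 3.25e-05 for Mrpl34 and 5.48e-05 for Mrpl22.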

How the results depend on the processing

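Across alternatives, 149 of the summary values were taken as unchanged and 8 as moved, and 0 results reversed. A count of calls was taken as unchanged within 1.5 times the main count. A median or summed level was taken as unchanged if it moved by less than the SD over lines. Among values for single lines and named members, 790 were unchanged and 23 counts moved, while 27 calls were lost and 19 gained. Of the coculture calls over lines, the members that rose numbered 10 in the second series of sample numbers and 21 with the trend over GC content and length removed, and those that fell numbered 0 in that series; both alternatives were chosen after seeing the data, the first keeps fewer lines, and for the second the cause was not tested. Without a replicate the numbers were 31 to 36 and 7 to 8, and without a line 27 to 36 and 6 to 8. Between the groups, 18 members (24%, against 31.7% of all genes) were called with 28 libraries and no replicate block and 17 (22.7%, against 29.1%) with the replicate block, and the group difference in response called 25 members (33.3%, against 32.3%) with 56 libraries and the replicate block, all of which treat libraries of a clone as replicates. Calls within lines, 193 higher and 68 lower in all, numbered 155 to 159 and 43 to 62 without a replicate.

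Deviations of libraries with the same replicate number correlated over 0.1 in 18 of 32 pairs, and in 24 of 32 the mono-culture library correlated best with the coculture library of its own number, a hint from the data that the labels do not state. In 1 line, N, all 4 pairs were over 0.1. A replicate block in N alone, chosen after seeing the data, gave 18 members higher and 10 lower there (20.7% and 18% of all genes). Without it the numbers were 18 and 9 (20% and 17.3%). In 30 of 32 pairs the correlation was above the mean of those with the other numbers. Over all lines the numbers were not taken to pair the cultures, by a rule that asked for every pair over 0.1. That rule is not a test of pairing, so the tests within lines leave out a pairing if there was one. With the 64 libraries in place of the sums, so that libraries of a line count as replicates, 47 members were higher and 9 lower, against 39.3% and 38.2% of all genes. A replicate block common to all lines gave 48 and 10, against 39.7% and 38.7%. That block does not model a pairing within a line. The lowest count of a tested member, 32, sets the precision of the lowest values.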
